A study of Mus musculus with 35 samples.

Results

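The HoxA, HoxB, HoxC and HoxD gene clusters were examined in lists of chromatin immunoprecipitation sequencing (ChIP-seq) regions from mouse macrophages. The members are all listed regions up to 1 Mb wide that overlap 1 of 4 windows of the mm9 genome: HoxA at chr6:52100000-52220000, HoxB at chr11:96050000-96235000, HoxC at chr15:102745000-102875000 and HoxD at chr2:74490000-74610000. There were 82 such regions among 250088 in the 35 libraries, and the windows added up to 555 kb. The windows stand for 38 Hox genes, 10 each in HoxA and HoxB and 9 each in HoxC and HoxD. Gene positions on mm9 were not used here, so no region is assigned to a single gene. RefSeq gives the order along the chromosome as Hoxa2 to Hoxa13, Hoxb13 to Hoxb1, Hoxc13 to Hoxc4 and Hoxd13 to Hoxd1 with rising coordinate.

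The cells were primary bone marrow macrophages of wild-type female C57BL/6 mice, aged 8 to 12 weeks. They were unstimulated or had received lipopolysaccharide (LPS), a bacterial cell wall component that activates macrophages. Histone H3 trimethylated at lysine 27 (H3K27me3) was profiled in 5 libraries, 1 each unstimulated and at 120, 240 and 480 min of LPS and 1 labelled 480 min whose title gives 60 min followed by a 7 h delay. Acetylated histone H4 (H4ac) had 8 libraries, a pair lettered A and B each unstimulated and at 60, 120 and 240 min. RNA polymerase II (Pol II) had 7 libraries, with 1 unstimulated, 2 at 60 min, 1 at 120 min, 2 at 240 min and 1 at 360 min. The transcription factors had 15 libraries. The NF-κB subunit p50 had 3 unstimulated and 4 at 60 min, its partner p65 had 1 unstimulated, 2 at 60 min and 2 at 120 min, and ATF3 had 3 at 240 min. Nothing in the labels says that libraries of a group came from separate animals, so the spread behind each p-value here may be technical. The lists held 255 to 28522 regions and no read counts, so depth is unknown, and a place outside the regions of a list is described as not listed. The labelled cell type was not checked against marker genes, since gene positions on mm9 were not used here.

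Hox genes encode homeodomain transcription factors that set position along the body axis of the embryo. In the clusters, gene order follows the order of expression along that axis, and the genes at the Hoxa13, Hoxb13, Hoxc13 and Hoxd13 ends act farthest towards the tail. Cells that do not use a Hox gene commonly keep it under Polycomb repressive complexes, whose enzyme PRC2 places H3K27me3 over broad domains. H4ac and Pol II mark active chromatin and transcription. In blood cell formation, genes such as Hoxa9, Hoxa10 and Hoxb4 act in stem and progenitor cells.

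Polycomb domains in vertebrates tend to be founded on CpG-rich DNA, and 4 promoters of Hox genes are therefore shown with each CpG in capitals. Each runs from 5′ to 3′ on the gene's own strand, and all are 300 bases around the annotated start from RefSeq on build GRCm38.p6, a build on which no ChIP-seq region is given. Hoxa2, at chr6:52164782-52165081 on the minus strand, stands at the low end of HoxA in the RefSeq order of these genes. Hoxa13, at chr6:52260831-52261130 on the minus strand, stands at the high end. Hoxd10, at chr2:74691641-74691940 on the plus strand, and Hoxc4, at chr15:103034145-103034444 on the plus strand, belong to the clusters in which no H4ac region was listed.
Hoxa2: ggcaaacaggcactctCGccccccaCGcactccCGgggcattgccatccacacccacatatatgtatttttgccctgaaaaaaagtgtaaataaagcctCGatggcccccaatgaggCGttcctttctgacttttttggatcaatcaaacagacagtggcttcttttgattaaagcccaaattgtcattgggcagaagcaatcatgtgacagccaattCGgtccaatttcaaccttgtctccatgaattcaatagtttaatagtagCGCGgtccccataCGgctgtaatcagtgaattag
Hoxa13: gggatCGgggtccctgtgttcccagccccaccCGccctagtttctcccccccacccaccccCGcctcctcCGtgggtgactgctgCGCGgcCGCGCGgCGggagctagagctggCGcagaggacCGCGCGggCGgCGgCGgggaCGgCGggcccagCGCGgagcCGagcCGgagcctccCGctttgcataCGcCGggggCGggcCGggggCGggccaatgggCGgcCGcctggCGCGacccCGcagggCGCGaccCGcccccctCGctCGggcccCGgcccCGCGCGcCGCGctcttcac
Hoxd10: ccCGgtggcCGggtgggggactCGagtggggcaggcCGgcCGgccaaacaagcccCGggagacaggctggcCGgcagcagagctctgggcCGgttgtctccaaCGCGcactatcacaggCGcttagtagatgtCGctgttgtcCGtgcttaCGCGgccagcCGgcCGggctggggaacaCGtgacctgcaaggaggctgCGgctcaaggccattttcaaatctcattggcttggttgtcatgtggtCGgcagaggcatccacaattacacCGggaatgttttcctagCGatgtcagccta
Hoxc4: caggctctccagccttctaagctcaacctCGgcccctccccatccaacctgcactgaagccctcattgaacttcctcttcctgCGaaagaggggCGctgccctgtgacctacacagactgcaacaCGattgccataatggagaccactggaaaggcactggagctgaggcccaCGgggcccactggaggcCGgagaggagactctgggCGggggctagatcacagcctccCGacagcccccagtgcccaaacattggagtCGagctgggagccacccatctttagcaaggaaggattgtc

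Hoxa13 held 45 CpGs and Hoxd10 held 22, against 9 each in Hoxa2 and Hoxc4. The ratio of observed to expected CpG, which corrects for base composition, was 0.92 for Hoxa13, 0.75 for Hoxd10, 0.59 for Hoxa2 and 0.33 for Hoxc4. RefSeq promoters were at hand for 22 of the 38 genes, 24 promoters in all. HoxC was represented by Hoxc4 alone and HoxB by Hoxb8, Hoxb4 and Hoxb1. All other promoters were of HoxA or HoxD, so the shares below describe mainly these clusters. The median ratio of the 24 promoters was 0.63, beside 0.38 for all 32851 promoters of the table. Of the 24, 12 (50.0%) reached 0.6, beside 35.8% of all. The member promoters ranged from 0.26, in 1 of the 2 Hoxd11 promoters, to 1.02 in Hoxa5. Binding motifs of the profiled factors were also searched on both strands. The 8-letter CRE TGACGTCA, bound by ATF3 and its relatives, was in 0 of 24 member promoters and 1.79% of all. The AP-1 motif TGANTCA, which neither contains the CRE nor lies in it, was in 1 of 24 (4.17%, a Hoxd11 promoter) and 7.81% of all. The NF-κB consensus was in 0 of 24 and 4.51% of all. These matches describe letters in a short window and were not tested.

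H3K27me3 was listed over most of the 4 clusters in every library, and it was the target with the most members, 42 of the 82. It covered 81.8% ± 6.6 of the windows (SD, n = 5). The covered length was 459.98 kb in the unstimulated library, 466.4 kb at 120 min, 504.14 kb at 240 min, 434.73 kb at 480 min and 405.38 kb after the 7 h delay. Both the highest and the lowest library were thus LPS libraries, with the unstimulated one between them. The LPS libraries averaged 452.7 kb ± 42.4 (SD, n = 4), which is 7.32 kb below the single unstimulated library and within 1 SD of it. With 1 unstimulated library no test was planned or made. Without both 480 min libraries the difference turned to 25.3 kb above the unstimulated library, and without the library of the 7 h delay to 8.44 kb above it.

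**Figure D1:**
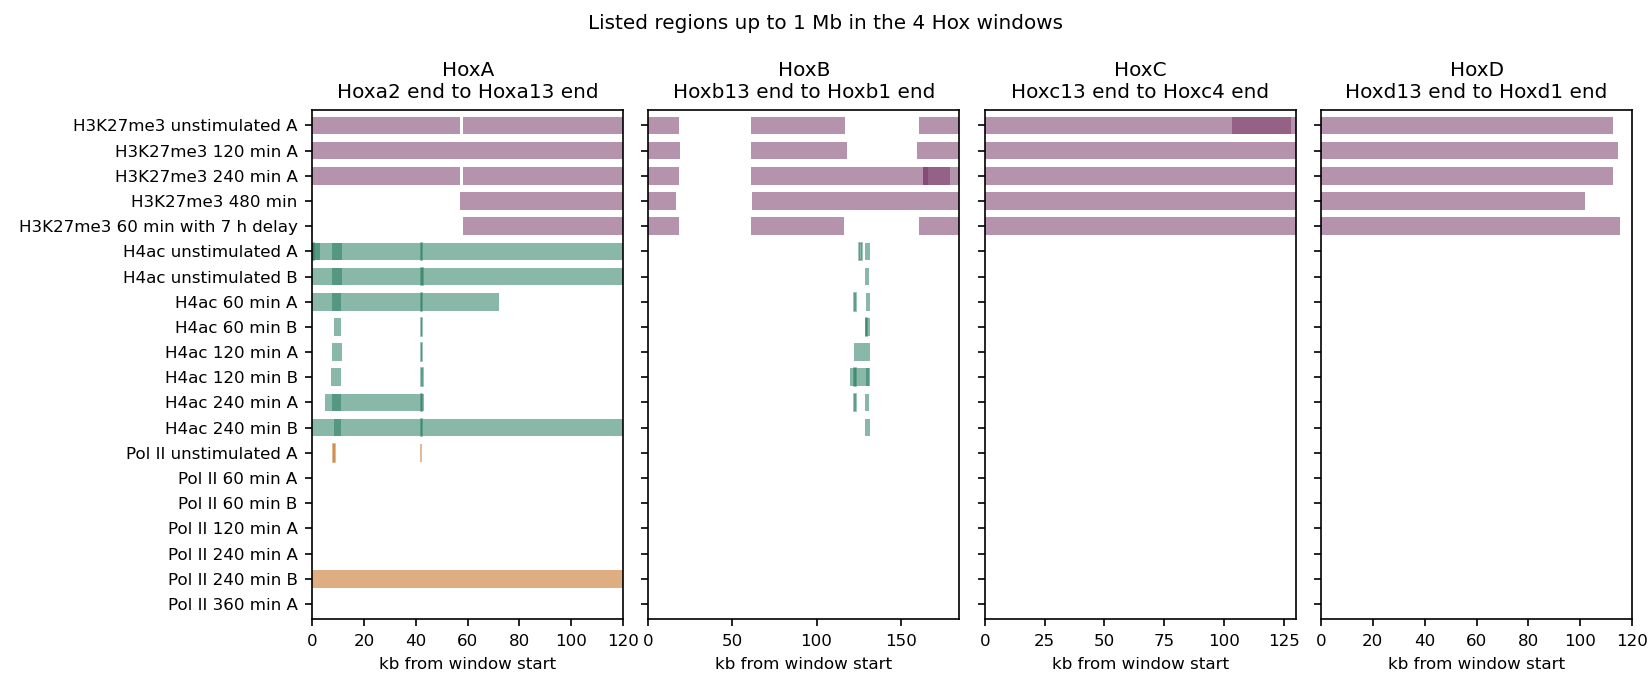
Listed regions up to 1 Mb in the 4 windows (bars), with distance from the window start in kb on the horizontal axis and 1 row per H3K27me3, H4ac and Pol II library. H3K27me3 fills HoxC in all 5 rows, and HoxC and HoxD hold no H4ac or Pol II bar. Darker bars are regions nested in wider ones, and regions up to 1.5 kb have an outline that widens them slightly.

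HoxC was covered in full, 130 of 130 kb, in all 5 lists. In HoxD 101.93 to 115.4 kb of 120 kb were covered, by a single region in each list. This region began between 74480421 and 74483141 on chromosome 2, beyond the Hoxd13 end of the window, and ended between 74591930 and 74605400, short of its Hoxd1 end. The library at 480 min ended first, at 74591930, and the other 4 ended within 2.92 kb of each other.

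In HoxA the lists gave a domain that started at nearly the same base pair position in each library. It began at 52158091 in the unstimulated library, 52157601 at 120 min, 52158151 at 240 min, 52156881 at 480 min and 52158021 after the 7 h delay, a spread of 1270 bp. From there it ran through the Hoxa13 end of the window. The authors' score of this region, which is used here only to rank regions within a list, was 2.99 in the unstimulated library and 2.50, 2.76, 2.81 and 2.74 in the LPS libraries in the same order. It ranked 2 of 4280 regions in the unstimulated list, 3 of 2687, 3 of 2945 and 3 of 4648 at 120, 240 and 480 min, and 6 of 4707 after the 7 h delay.

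On the Hoxa2 side of this edge the lists differed. A second region, 154.3 to 170.88 kb wide, covered that side in the unstimulated, 120 and 240 min libraries with lower scores of 0.85, 0.57 and 0.75. Its rank lay between 34.97% and 43.9% of the way down those lists. It was absent from both libraries labelled 480 min, which left 56.88 and 58.02 kb of HoxA not listed. HoxA coverage was accordingly 118.93 kb unstimulated, 120 kb at 120 min and 118.89 kb at 240 min, but 63.12 and 61.98 kb in the libraries labelled 480 min. Those 2 libraries also share a title date that no other H3K27me3 library has, so time and date cannot be told apart.

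HoxB was interrupted. A region on the Hoxb13 side ended between 96066230 and 96068880 in the 5 lists, and next to it 41.99 to 45.32 kb were not listed in any library. A middle domain began between 96110721 and 96111551, a spread of 830 bp, and ended between 96166390 and 96168400. Beyond it a second stretch of 41.14 to 44.36 kb was not listed in the unstimulated, 120 min and 7 h delay libraries. At 240 and 480 min the same stretch lay under regions of 161.19 and 160.84 kb with scores of 0.76 and 0.99, below the 1.80 and 2.04 of the middle domain in those lists. The Hoxb1 end was covered again in all 5. Coverage of HoxB was 98.57 kb unstimulated, 101.87 kb at 120 min, 142.44 kb at 240 min, 139.68 kb at 480 min and 98.0 kb after the 7 h delay. HoxB coverage was thus highest at 240 min, with 480 min next, and lowest in the library of the 7 h delay. This order differed from the order in HoxA. With 1 library each, a relation to LPS time was not tested.

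The best-scored H3K27me3 region of each cluster was then ranked among all regions of 50 kb to 1 Mb in its list, of which there were 1271 to 1717. HoxA ranked 2 to 5, HoxC 8 to 15, HoxD 12 to 36 and HoxB 37 to 49. HoxA stood above HoxC, HoxD and HoxB, and HoxB below the other 3, in each of the 5 libraries. The lower limit of 50 kb was not planned, and the HoxB regions, 54.86 to 57.53 kb wide, lay just above it. In the whole lists the ranks were 0.05 to 0.13% of the way down for HoxA and 0.22 to 1.12% for HoxC. They were 1.01 to 3.31% for HoxD and 3.82 to 4.73% for HoxB. By length the order of the clusters was another. Of 2471 stretches of the genome covered in all 5 lists, with a median length of 26.64 kb, the HoxC stretch of 231.46 kb was number 169 by length, HoxD (110.54 kb) 453 and HoxA (68.88 kb) 707. The 3 HoxB stretches measured 34.4, 54.84 and 27.8 kb.

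**Figure D2:**
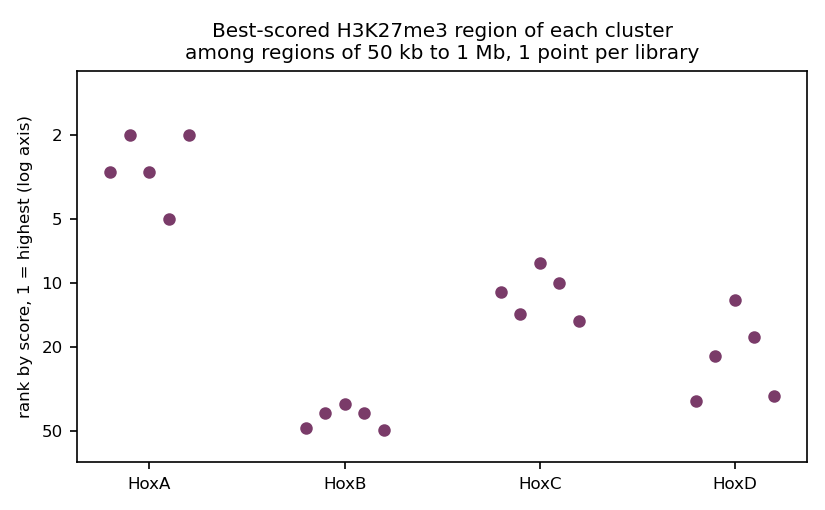
Rank by the authors' score of the best-scored H3K27me3 region in each cluster, among regions of 50 kb to 1 Mb in its list. The axis is logarithmic with the highest score at the top, 1 point per library. The 5 HoxA points lie between 2 and 5 and the HoxB points between 37 and 49.

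Per 1 kb bin, 388 of the 508 Hox bins held by at least 1 H3K27me3 list (76.4%) were held by all 5. A bin counts as held when at least 50% of it is covered. Over the whole genome 31.7% of bins held by at least 1 list were held by all 5. The count was 130 of 130 bins in HoxC, 102 of 115 in HoxD, 94 of 143 in HoxB and 62 of 120 in HoxA. Regions up to 100 kb alone held 70 bins in all 5 lists, since 21 of the 42 members were wider than that.

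The same lists covered 12.8% ± 0.8 of the genome span (SD, n = 5), so coverage of the Hox windows was 6.45 ± 0.90 times as high. Flanks, 1 window length on each side of every window, were covered to 59.4% ± 3.9. The windows exceeded the flanks in 5 of 5 libraries, by 22.4 ± 7.7 percentage points (SD, n = 5). The exact two-sided sign permutation p was 0.0625, the smallest that 5 libraries allow. This test was added after seeing the data, and its 5 libraries differ in condition. HoxD was covered to 92.9% ± 4.5 and its flanks to 16.1% ± 11.3, with the window above the flanks in 5 of 5 libraries. HoxA was covered to 80.5% ± 25.9 and its flanks to 59.4% ± 6.4, but in both libraries labelled 480 min the window lay below the flanks, at 52.6% against 53.1% and, after the 7 h delay, 51.6% against 53.6%. HoxC had flanks at 86.4% ± 12.0. The mean of HoxB, 62.8% ± 12.3, was below that of its flanks, 68.4% ± 5.5, although the window was above the flanks at 240 min (77.0% against 62.2%) and at 480 min (75.5% against 69.8%). These values per cluster were not tested.

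**Figure D3:**
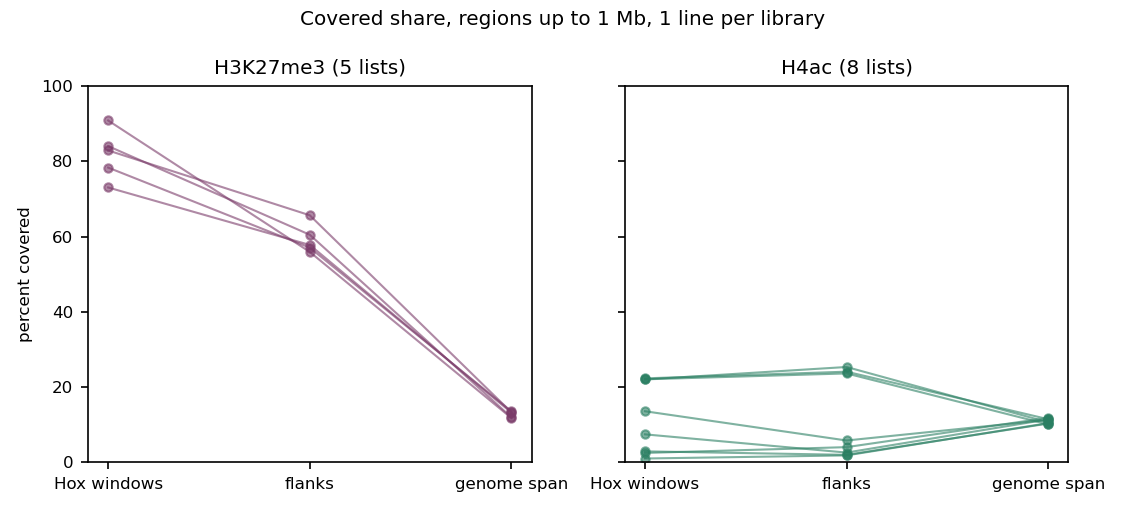
Percent of the Hox windows, of their flanks and of the genome span covered by regions up to 1 Mb, 1 line per library. The 5 H3K27me3 lines fall from 73.0 to 90.8% in the windows to 11.8 to 13.6% of the genome, and the 8 H4ac lines show no common direction.

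H4ac was listed in HoxA and HoxB and in neither HoxC nor HoxD, where all 8 libraries had 0 kb. Small regions at the same places recurred before and after LPS. With regions up to 10 kb, and overlapping ones of the 8 libraries merged, there were 4 H4ac sites in the windows, and 3 of them were held by all 8 libraries. Genome-wide 23.8% of such merged regions were held by all 8.

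The first HoxA site, chr6:52107121-52111390, was held by 1 region of 2.81 to 4.05 kb in each library, near the Hoxa2 end. It ranked 15.2% down the list in unstimulated A and 21.2% in unstimulated B. At 60 min it ranked 51.6% (A) and 99.9% (B), at 120 min 36.3% and 82.4%, and at 240 min 29.2% and 59.2%. In both letters the unstimulated library thus gave it the best rank and the 60 min library the worst. Ranks from lists of different lengths show no change in level, and no test was made.

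The second HoxA site, chr6:52141921-52142700, was 0.37 to 0.76 kb wide. It ranked 5.35% down the list in unstimulated A and 39.0% in unstimulated B. At 60 min it ranked 11.6% and 23.0% in A and B, at 120 min 14.4% and 44.6%, and at 240 min 10.3% and 21.6%. The A libraries ranked it higher than the B library of the same time at all 4 times. In both letters the LPS libraries stood in the order 240, 60 and 120 min from best to worst rank, with 120 min the worst of all 4 times, while the unstimulated library had the best rank in A and stood between 60 and 120 min in B. The remaining HoxA site, chr6:52100001-52102970, was listed in unstimulated A alone.

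The HoxB site, chr11:96172031-96181720, lay on the Hoxb1 side of the middle H3K27me3 domain. Its lasting part was a region of 2.11 to 2.58 kb that began between 96179031 and 96179171 in 7 libraries. In the 120 min A library the site was a single region of 9.69 kb, and in 120 min B a region of 11.52 kb lay over it. A smaller place at chr11:96172431-96173530 was listed in 3 LPS libraries, 60 min A, 240 min A and 120 min B. With regions up to 5 kb the HoxB site separated into 3, and the one that 7 libraries held was no longer listed in 120 min A, where the wider region was the only one.

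HoxB coverage by H4ac was 3.93 and 2.31 kb in unstimulated A and B, 3.42 and 2.58 kb at 60 min, 9.69 and 11.52 kb at 120 min, and 3.21 and 2.53 kb at 240 min. Both 120 min libraries were thus above every other library and the other times overlapped. This held with the wide region of 120 min B, and with regions up to 10 kb that library had 3.27 kb, below the unstimulated A and 60 min A libraries. The change from the unstimulated library of the same letter at 120 min was 5.76 kb in A and 9.21 kb in B. Over all LPS times the mean was 5.49 kb ± 4.02 (SD, n = 6) against 3.12 kb ± 1.15 (SD, n = 2). The exact two-sided permutation p was 0.714 (Benjamini-Hochberg p over the 4 clusters 1.00, smallest possible p 0.0714). This test pools 120 min with the other LPS times, so it cannot decide on a change at 120 min. By bins, 2 of the 12 HoxB bins held by at least 1 library counted as gained with LPS, meaning held by at least 4 of the 6 LPS libraries and neither unstimulated one. Over the 4 windows these were 2 of 132 bins (1.52%), beside 8.16% genome-wide. With regions up to 10 kb 1 of 18 bins was gained (5.56%), beside 5.59% genome-wide. Leaving out any of 4 LPS libraries, 60 min A, 120 min A, 120 min B or 240 min A, brought the count of 2 to 0. The limit of at least 4 LPS libraries stayed fixed, so bins held by exactly 4 drop out by the rule itself.

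**Figure D4:**
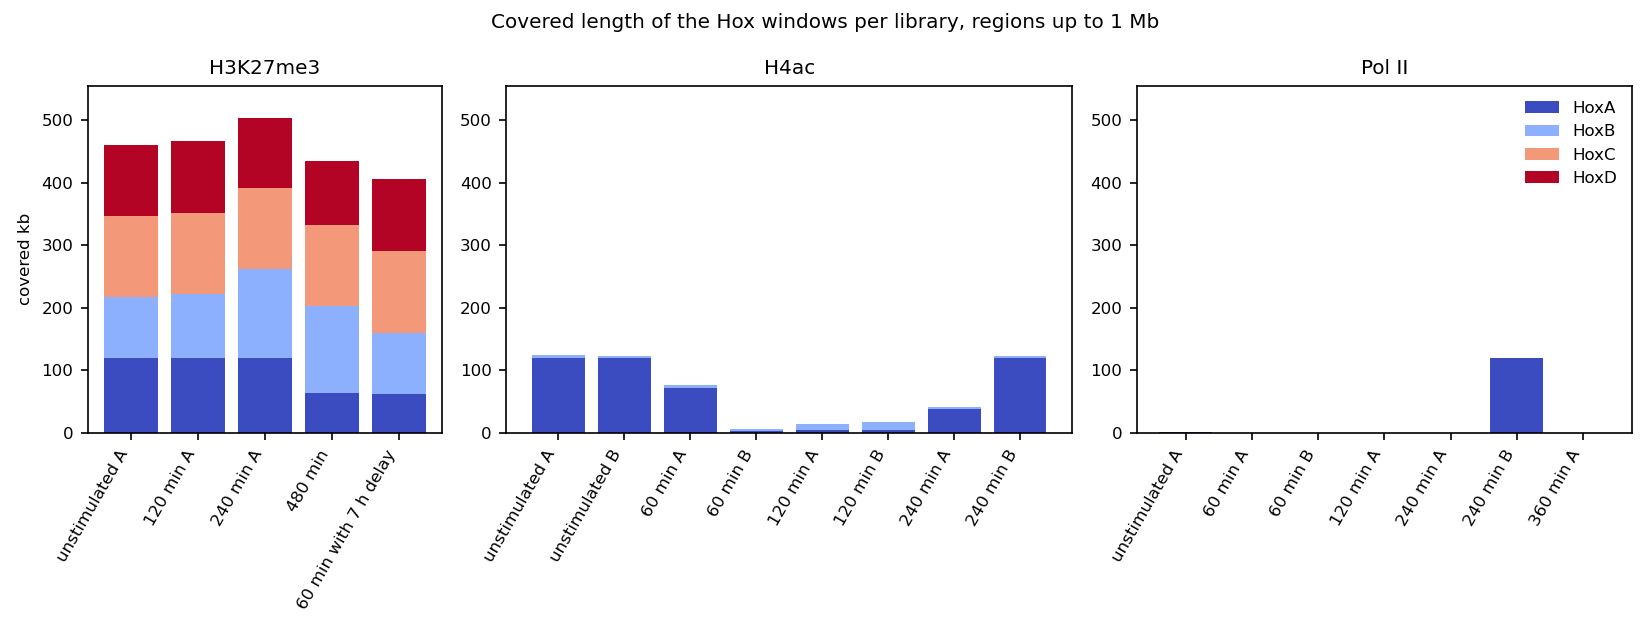
Covered kb of the Hox windows by regions up to 1 Mb, stacked by cluster, 1 bar per library, for H3K27me3, H4ac and Pol II. The vertical axis starts at 0 and ends at the summed window length of 555 kb. The H4ac bars consist of HoxA and HoxB only and run from 5.76 kb at 60 min B to 123.93 kb in unstimulated A.

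HoxA coverage by H4ac was set by very wide regions. It was 120 kb in unstimulated A, unstimulated B and 240 min B, 72.02 kb at 60 min A, 38.17 kb at 240 min A, 4.80 kb at 120 min B, 4.28 kb at 120 min A and 3.18 kb at 60 min B. The 3 full values came from regions of 943.41, 936.98 and 944.8 kb that began within 0.58 kb of each other, between 51406091 and 51406671. Over the 4 windows the LPS libraries averaged 45.9 kb ± 45.3 (SD, n = 6) and the unstimulated ones 123.1 kb ± 1.1 (SD, n = 2). The difference of -77.2 kb had an exact two-sided permutation p of 0.143, in a design of 28 arrangements that cannot go below 0.0714, and HoxA alone had p = 0.214 (exact permutation, Benjamini-Hochberg p 0.857). With letters as blocks the difference was the same and p was 0.25.

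This difference depended on the width limit of 1 Mb. In 120 min A, 120 min B and 240 min A, regions of 1163.5, 1204.07 and 1117.68 kb with nearly the same low edge, 51405931 to 51407811, lay over HoxA and were left out as wider than 1 Mb. With regions of every width HoxA was covered in full in 6 of 8 libraries. The exceptions were both 60 min libraries, at 72.02 kb in A and 3.18 kb in B. The difference over the 4 windows shrank with every width to -25.1 kb (p = 0.857, exact permutation), and 60 min was not tested apart at this width. With regions up to 500 kb it turned to 17.5 kb higher after LPS (p = 0.429, exact permutation), and with regions up to 10 kb it was -0.84 kb. Bins lost with LPS, held by both unstimulated and at most 1 of 6 LPS libraries, numbered 48 of 132 (36.4%), all in HoxA, beside 5.68% genome-wide. With regions up to 10 kb they numbered 0 of 18, beside 9.74% genome-wide. Without 60 min A or without 240 min B the count of 48 rose to 82. The limit of at most 1 LPS library stayed fixed. Bins held by both of these and no other LPS library thus counted as lost by the rule itself.

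Among regions up to 1 Mb, Pol II was listed in HoxA alone. Wider Pol II regions, of 1472.84, 1168.51 and 1613.45 kb, lay over HoxC in the unstimulated, 60 min B and 120 min A libraries. The unstimulated library had 2 small regions, chr6:52108121-52108970 of 0.85 kb and chr6:52141901-52142150 of 0.25 kb, each overlapping 1 of the H4ac sites that all 8 H4ac libraries held. Their scores of 0.84 and 0.98 ranked 3777 and 3336 in the list. No LPS library had a region up to 10 kb at either place, while 39.1% of all unstimulated Pol II regions up to 10 kb were met by none in the 6 LPS lists. Coverage was 1.10 kb in the unstimulated library, 120 kb at 240 min B through 1 region of 816.59 kb, and 0 kb in the other 5 LPS libraries. The mean LPS difference of 18.9 kb therefore rested on 240 min B, and it was -1.10 kb without that library. These values depended on the width limit of 1 Mb. With regions of every width HoxA was covered in full in 4 of 7 libraries, the unstimulated, 60 min B, 240 min A and 240 min B ones. There was 1 unstimulated library, so no test was made.

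None of the 4 H4ac sites touched a stretch covered in all 5 H3K27me3 lists, beside 8.16% of merged H4ac regions genome-wide that did touch one. The nearest such stretch was 15.45, 28.15 and 35.27 kb away for the HoxA sites and 5.64 kb for the HoxB site. Single H3K27me3 lists did cover the sites. All 8.02 kb of the HoxA sites lay inside the lower-scored region of the unstimulated, 120 and 240 min libraries and 0 kb inside those of both libraries labelled 480 min. The 9.69 kb of the HoxB site lay inside H3K27me3 regions at 240 and 480 min and outside them in the other 3.

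**Figure D5:**
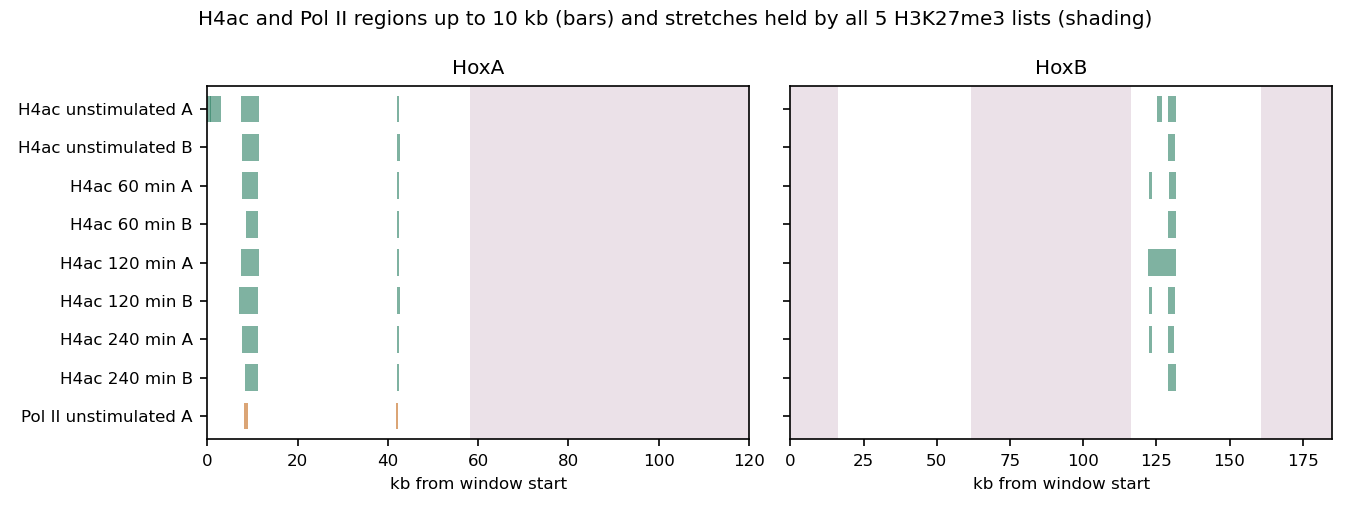
H4ac and unstimulated Pol II regions up to 10 kb (bars) in HoxA and HoxB, with distance from the window start in kb, 1 row per library. Shading marks the stretches covered in all 5 H3K27me3 lists, and no bar lies on it.

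The transcription factor lists had 0 members, in 7 p50, 5 p65 and 3 ATF3 libraries. The p50 difference between LPS and unstimulated libraries was thus 0 kb, and with 0 kb in all 7 libraries there was nothing to test. These lists covered little of the genome span in all. The p50 lists covered 0.0090 to 0.185% of it. The p65 lists covered 0.041 to 0.078% apart from 60 min X and 120 min X, at 1.30% and 2.08%. ATF3 covered 0.059% and 0.094% in 240 min B and C and 1.13% in 240 min A. On average the p50, p65 and ATF3 lists covered 0.0026%, 0.017% and 0.025% of the flanks.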

How the data were processed

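ChIP-seq regions of 35 libraries in 20 groups were analysed, grouped by the target, stimulation and time in the labels. The authors deposited 1 list per library, holding position, a scale number and a score per region. The score is the authors' own as deposited, in a unit the sources do not define, and gave only the ranks of regions inside 1 list. Build mm9 is named in the submitters' processing notes. The aligner is not given in the sources used here, nor is the region caller. Read depth is unknown.

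Lists were nested, so regions up to 1 Mb were merged within each list and the covered bases of each window summed (Python 3.11.15, numpy 2.4.6, pandas 2.3.3). Exact two-sided permutation tests compared libraries, with p as 2 times the smaller tail. The code was tested on simulated data. Coordinates are 1-based. The 38 genes, windows and lists were chosen with earlier results of these data known. Genes were to be named by position, or by cluster and order where no mm9 positions were used, which applied here. Macrophage and other cell type marker lists were not used for the same reason.

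Letters in titles were checked as pairs by correlating deviations from group means over 100 kb bins. For H4ac the correlations were 0.16 to 0.20, and letters were taken as pairs. With 2 libraries a group, A and B mirror each other, so the same values occur in both letters. Each A list was also longer than the B list of its time. The title date of 240 min A differs from that of unstimulated A. The check therefore cannot show that letters are biological pairs. For p50 the correlations were -0.16 to 0.13, so letters there are names only. Alternatives were width limits of 10 kb, 100 kb and every width, the better-scored 50% of each list, equal list lengths, a bin rule of 1 base, each library left out and letters as blocks. Limits of 5 and 500 kb, the lists without both 480 min libraries and the test against flanks were added after seeing the data.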

Additional observations from a re-analysis of the deposited data

Results flagged for a closer look

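Regions wider than 1 Mb are outside the members, and 33 of them, in 21 libraries, lay over a Hox window. In 4 cases a window was under such a region in LPS libraries and in no unstimulated library of the same target. For H3K27me3 over HoxD these were 2 libraries, both labelled 480 min, with regions of 2003.75 and 2011.13 kb. For p50 over HoxA it was 1 library, 60 min A, with a region of 6707.68 kb, and over HoxB 2 libraries, 60 min A and 60 min C, with regions of 54545.6 and 72243.5 kb. For p65 over HoxC there were 2 libraries, 60 min X and 120 min X, with regions of 5071.01 and 5101.4 kb. These p50 regions over HoxA and HoxB ranked near the end of their lists, with scores of 0.021, 0.072 and 0.0075. Other windows were covered more in unstimulated libraries, with regions of every width. Mean p50 coverage of HoxC was 130 kb unstimulated (n = 3) and 65 kb with LPS (n = 4). For p65 (n = 1 and 4), HoxA had 120 kb unstimulated and 60 kb with LPS, and HoxB 185 and 92.5 kb. For Pol II (n = 1 and 6), HoxA had 120 and 60 kb, and HoxC 130 and 43.3 kb. Regions of this width hold many genes besides the Hox genes, and these differences were not tested.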

How the results depend on the processing

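The H4ac difference over the 4 windows reversed from -77.2 kb to 17.5 kb with regions up to 100 kb or up to 500 kb, and to 21.6 kb with lists of equal length. It ranged from -92.5 to -69.2 kb over the libraries left out in turn, and was -82.5, -108.0 and -41.2 kb at 60, 120 and 240 min alone. With 2 unstimulated libraries its exact test cannot go below 0.0714, so p-values say nothing of its stability. With the letter as replicate block it was -77.2 kb (exact permutation p = 0.25), and the p50 difference in its block was 0 kb, with every library at 0. The p50 difference was 0 kb under every alternative but regions of every width, where it was 57.5 kb (p = 0.629, exact permutation). The H3K27me3 difference moved to -59.0 kb with regions up to 100 kb, where wide domains drop out, and ranged from -24.5 to 8.44 kb over libraries left out. The Pol II difference turned to -146.7 kb with regions of every width, and ranged from -1.10 to 22.9 kb over libraries left out. H3K27me3 coverage fell to 24.9% with regions up to 100 kb and 0.35% up to 10 kb, and bins held by all 5 lists to 70 and 0. H4ac coverage of 11.7% moved to 1.50% with regions up to 10 kb and 0.97% with the better-scored 50%. Gained H4ac bins numbered 1 with regions up to 10 kb, 0 with the better-scored 50% or equal lists, and 0 to 3 over libraries left out. Lost H4ac bins numbered 0 under each other width limit, the better-scored 50% and equal lists, and 48 to 82 over libraries left out. The limits of the gained and lost rules stayed fixed when a library was left out, so both ranges partly follow from the rules. Apart from width limits the cause of these shifts was not tested. Unknown depth limits every absence.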
